A study of Homo sapiens with 14 samples.

Results

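The genes described here encode the catalytic subunit of telomerase (TERT), the 6 subunits of shelterin (TERF1, TERF2, TERF2IP, TINF2, POT1 and ACD) and the chromatin proteins ATRX and DAXX. They were taken by symbol from the gene names in the 2 count tables, where the 9 symbols made up 11 of 17810 entries in the table of engineered cells and 9 of 19143 entries in the table of parental cells. RNA-seq was carried out on CHP-134, a MYCN-amplified human neuroblastoma cell line, in 14 libraries. The engineered lines carried a doxycycline-inducible lentiviral cassette for either EGFP or OmoMYC, were selected with G418 and grown in tetracycline-approved serum, and all 6 of their libraries (3 EGFP, 3 OmoMYC) came from cells given doxycycline at 1 µg/ml for 3 days. OmoMYC is a dominant-negative MYC derivative that competes for the sites MYC proteins bind, so EGFP against OmoMYC asks which genes depend on N-MYC. The EGFP and OmoMYC lines were made separately, so any difference between the lines themselves cannot be told apart from the effect of OmoMYC. Parental CHP-134 cells, which carry no degradation tag, were grown in normal serum and given DMSO or 500 nM dTAG47, a degrader of tagged proteins, for 18 h (4 libraries each), so this comparison asks what the compound does without its target.

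Telomerase is a reverse transcriptase that copies an RNA template to add telomeric repeats to chromosome ends, and TERT is usually its limiting subunit. Shelterin coats the repeats: TERF1 and TERF2 bind the double-stranded part, POT1 binds the single-stranded overhang, and TERF2IP, TINF2 and ACD join them into a complex that hides the end from repair and regulates access of telomerase. ATRX and DAXX deposit the histone variant H3.3 at telomeres and other repeats, and tumours that lack either often keep their telomeres by recombination (alternative lengthening of telomeres, ALT). Neuroblastomas are known for both routes, with high TERT common in MYCN-amplified tumours and ATRX loss found mostly in tumours without the amplification.

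TERT is also a textbook MYC target, since MYC dimers bind E-boxes (CACGTG) near its start. The RefSeq promoter windows (250 bases before to 50 bases after the start, GRCh38) held 5 of the 9 genes, and TERT was the only 1 of these 5 with a CACGTG, read on both strands, while 2548 of all 35116 windows (7.26%) held it. The E-box is shown because OmoMYC acts through such sequences. It begins 163 bases upstream of the TERT start, and the stretch around it lies on the minus strand at chr5:1295214-1295243 of GRCh38 and at chr5:1295329-1295358 of GRCh37, outside the transcript, with the motif in capitals.
TERT E-box: gaccgcgcttccCACGTGgcggagggactg

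The match describes the sequence and is no measure of binding in these cells.

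Library totals ran from 28060817 to 38358128 counts in the engineered lines and from 40861430 to 53451641 in the parental cells. Levels are given as CPM (counts scaled to library size) scaled with TMM factors within each table, with SD over libraries. The neuroblastoma markers summed to between 1390 and 1690 CPM in every library, although TH and DBH, enzymes of catecholamine synthesis among these markers, stayed at or below 1.41 CPM. Fibroblast markers summed to between 33.7 and 46.6 CPM in the engineered lines and between 11.2 and 13.9 CPM in the parental cells. Epithelial markers summed to 6.29 CPM in dTAG47 replicate 2 and to at most 0.87 CPM in the other 7 parental libraries. Reads assigned to MYC were at 0.61 ± 0.068 CPM in the EGFP line and reached 522 ± 7.85 CPM in the OmoMYC line (SD over 3 libraries), where reads of the gene and of the transgene are not separated, and MYCN fell by 0.28 on the log2 scale (SE 0.075, edgeR adjusted p = 0.0103). The study's methods call the replicates biological, while neither they nor the labels say whether these were separate cultures, so p-values measure the spread between these libraries.

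TERT mRNA was the least abundant of the measured genes per kilobase of transcript. In parental cells with DMSO the level per kb was 2.64 ± 0.185 CPM for TERT, against 75 ± 1.83 for TERF2IP and 42.1 ± 2.31 for DAXX (SD, n = 4), and in the EGFP line TERT stood at 3.33 ± 0.448 CPM per kb (n = 3). Between them, ACD, TERF2, TINF2 and ATRX lay between 16.8 and 19.6 CPM per kb in DMSO. ACD (18.4 to 21.9) and TERF2 (18.1 to 19) overlapped, TINF2 (17 to 17.4) lay below both, and ATRX (15.5 to 18.6) overlapped all 3. TERF1 (13 ± 0.947) and POT1 (12.6 ± 0.698) came next and also overlapped. With OmoMYC, POT1 (9.27 ± 0.943) and TERF1 (8.9 ± 0.608) again lay beside each other, above TERT at 2.69 ± 0.192 CPM per kb.

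**Figure D1:**
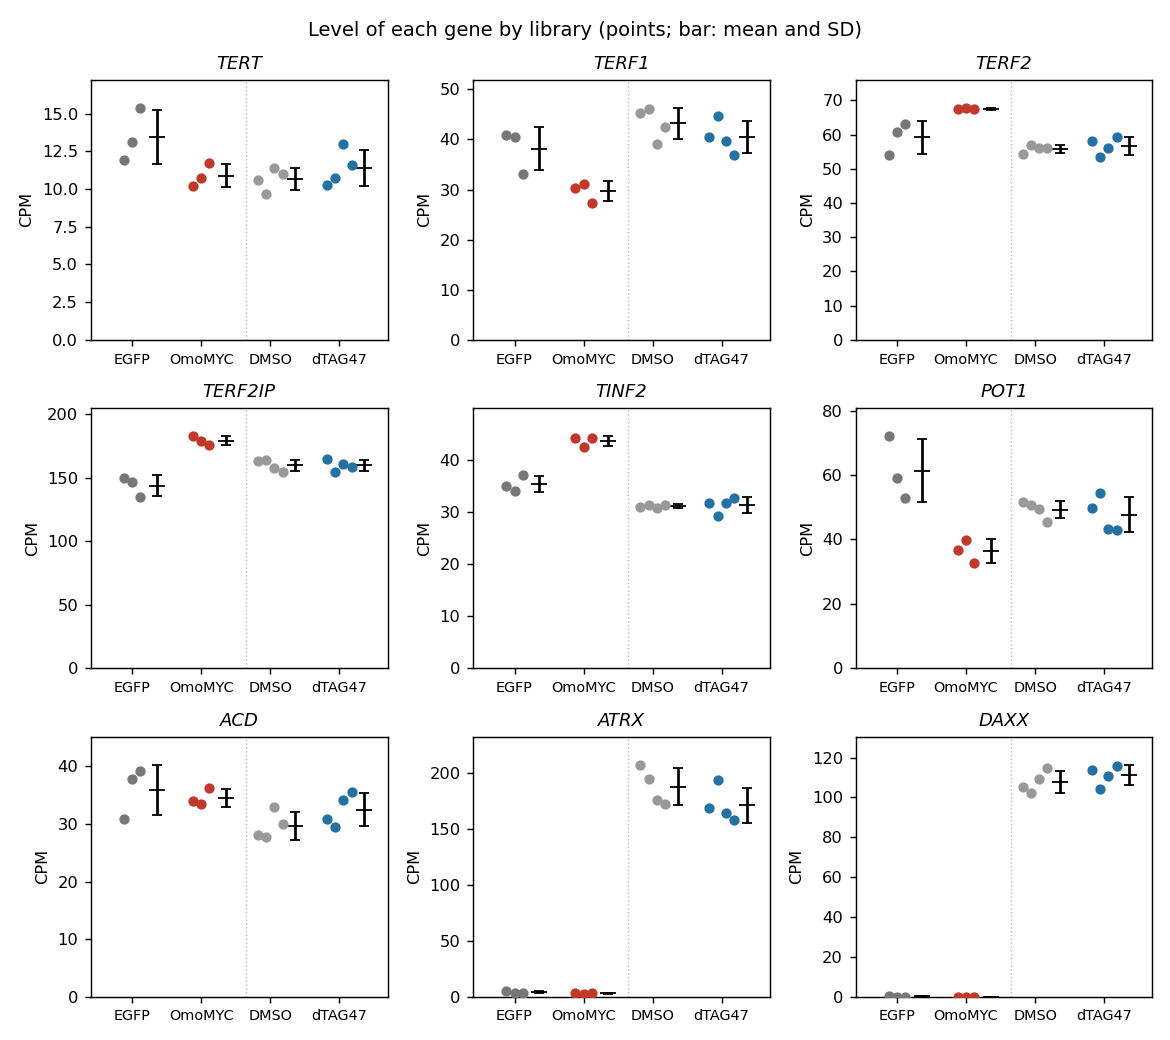
Level of each of the 9 genes in CPM (vertical axes, from 0) in every library of the 4 groups, with the mean and SD beside the points and a dotted line between the 2 tables, which were scaled apart. For ATRX and DAXX the 2 identifiers in the table of engineered cells were summed, and both lie near 0 there, while all POT1 points with OmoMYC (32.6 to 39.9 CPM) lie below those with EGFP (53 to 72.1 CPM).

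TERT was lower in the OmoMYC line than in the EGFP line, by an amount that differed between settings, and its call did not hold under every setting. TERT (ENSG00000164362.14, chromosome 5, 1253262 to 1295183 of GRCh37, minus strand) was at 11.9, 13.1 and 15.4 CPM in the 3 EGFP libraries and at 10.2, 10.7 and 11.7 CPM in the 3 OmoMYC libraries. The groups did not overlap, but the highest OmoMYC library lay close to the lowest EGFP library. Means were 13.5 ± 1.81 and 10.9 ± 0.777 CPM, which is -0.31 on the log2 scale (SE 0.12, 95% CI -0.56 to -0.05, edgeR quasi-likelihood test, adjusted p = 0.0454). This call was lost in 6 of 15 alternatives, not counting the test against a 1.5-fold change, where it was lost too. Among the 6 were leaving out EGFP replicate 2 (edgeR adjusted p = 0.07), EGFP replicate 3 (0.0919), OmoMYC replicate 1 (0.148) or OmoMYC replicate 2 (0.0872). After removal of a trend on GC content, length and span, described below, the log2 fold change was -0.72 (edgeR adjusted p = 8.86e-08). Of its neighbours, the membrane protein gene CLPTM1L stood at -0.01 on the same scale (adjusted p = 0.913), and SLC6A18, a transporter gene, was too low to test (0.109 CPM or less on average).

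Of the shelterin subunits, POT1 and TERF1 were suppressed and TERF2IP and TINF2 were induced, while TERF2 and ACD did not pass the test. Together with TERT, 3 of the 8 tested entries were suppressed and 2 induced. Over all 13803 genes tested, 25.7% were suppressed and 27.3% induced, so the members' shares say little by themselves. For 6 of the 8 entries the groups did not overlap, against 62.3% of all genes.

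POT1, which binds the single-stranded overhang, gave the largest difference of the tested members with TMM scaling, though not after removal of a trend on GC content, length and span, where TERT did. POT1 (ENSG00000128513.10, chromosome 7, 124462440 to 124570037) was at 72.1, 59 and 53 CPM with EGFP and at 36.6, 39.9 and 32.6 CPM with OmoMYC. The groups were well apart, and EGFP replicate 1 was the highest. The log2 fold change was -0.75 (SE 0.12, 95% CI -1.01 to -0.49, edgeR adjusted p = 0.000456), and 4.05% of all tested genes had a lower value. POT1 was called under each of the 15 alternatives other than the test against a 1.5-fold change, although its size ranged from -0.88 to -0.38. Against a 1.5-fold change 0 members were suppressed and 0 induced, where 239 of all 13803 genes were suppressed and 945 induced.

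TERF1, which binds the double-stranded repeats and regulates their length, was at 40.9, 40.5 and 33.2 CPM with EGFP and at 30.3, 31.2 and 27.4 CPM with OmoMYC. All OmoMYC libraries were lower, and the log2 fold change was -0.37 (SE 0.099, edgeR adjusted p = 0.0101). TERF2, the subunit that protects ends from fusion, was at 53.9, 60.8 and 63.1 CPM with EGFP and at 67.4, 67.9 and 67.4 CPM with OmoMYC. These groups did not overlap either, but the log2 fold change of 0.19 missed the threshold (SE 0.078, edgeR adjusted p = 0.0617) and passed it without EGFP replicate 3 (0.0371) or with library size alone as scaling (0.0489). Per kb, the ratio of TERF1 to TERF2 was 0.683, 0.6 and 0.474 with EGFP and 0.405, 0.414 and 0.366 with OmoMYC.

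TERF2IP (RAP1), the partner of TERF2, was at 150, 147 and 135 CPM with EGFP and at 183, 179 and 176 CPM with OmoMYC. Its log2 fold change was 0.32 (SE 0.067, 95% CI 0.17 to 0.47, edgeR adjusted p = 0.00269). It was called under each of the same 15 alternatives, but not against a 1.5-fold change. TINF2, the bridge between the double-strand binders and ACD, was at 35, 34.1 and 37.1 CPM with EGFP and at 44.1, 42.5 and 44.2 CPM with OmoMYC. The log2 fold change was 0.30 (SE 0.074, edgeR adjusted p = 0.0064), and the call was lost without EGFP replicate 2 (log2 fold change 0.25, adjusted p = 0.0556). ACD (TPP1), which recruits telomerase and holds POT1, was at 30.9, 37.7 and 39.1 CPM with EGFP and at 33.9, 33.4 and 36.3 CPM with OmoMYC. Its groups overlapped, and its log2 fold change of -0.05 had a 95% CI from -0.27 to 0.16.

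The subunits differed in proportion between the lines. The ratio of POT1 to its partner ACD, per kb, went from 0.675 ± 0.198 to 0.407 ± 0.0584, and that of POT1 to TERF2IP from 0.231 ± 0.026 to 0.11 ± 0.0105 (SD, n = 3 each). Neither ratio overlapped between the groups, nor did that of TERF1 to TERF2. A two-sided exact permutation test gave p = 0.1 for all 3 ratios, the smallest value that 3 against 3 libraries allow, so this design cannot pass 0.05. On the log2 scale the ratios changed by -0.70 (POT1 to ACD), -1.07 (POT1 to TERF2IP) and -0.56 (TERF1 to TERF2), but after removal of the trend on GC content, length and span these were -0.07, -0.72 and -0.15. In bulk RNA, a change in the share of cells that transcribe a gene and a change in RNA per cell cannot be told apart.

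**Figure D2:**
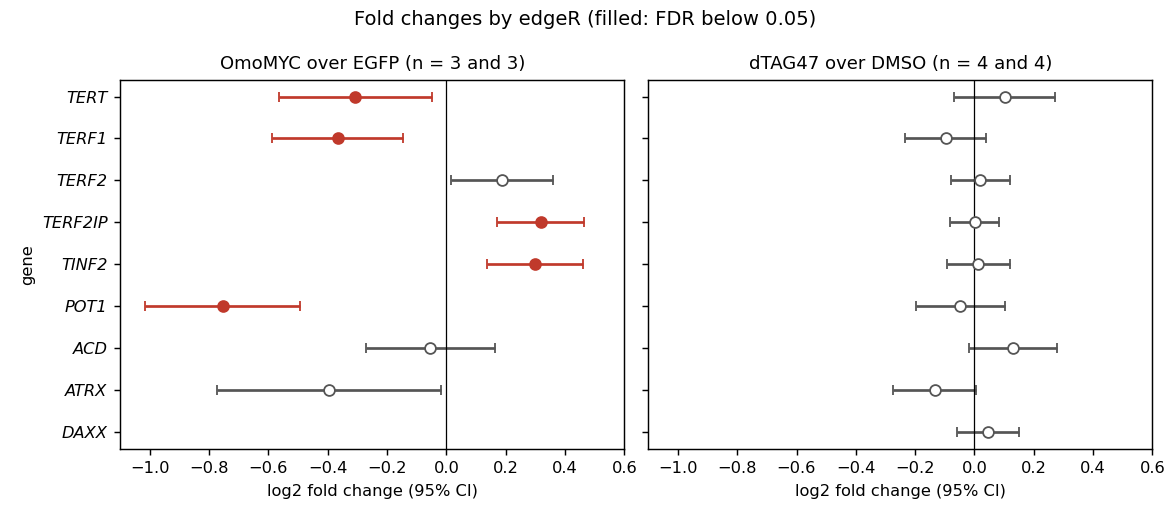
The log2 fold change (horizontal axes) of each gene by edgeR with its 95% confidence interval, OmoMYC over EGFP on the left and dTAG47 over DMSO on the right, filled where the adjusted p was below 0.05. POT1 lies farthest from 0 on the left at -0.75, while on the right all 9 genes lie between -0.13 and 0.13. The ATRX value on the left comes from its second identifier.

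The libraries of the engineered lines also differed along the GC content of genes, and several members lie at its ends. The 2272 tested genes with transcripts under 40% GC had a median deviation from their own mean log2 CPM of 0.32 in EGFP replicate 1 and -0.21 in OmoMYC replicate 3, and the 2280 genes over 60% GC had -0.38 and 0.27 in the same libraries. All 3 EGFP libraries were above all 3 OmoMYC libraries for the low-GC genes and below them for the high-GC genes. POT1 (36.6% GC) and TERF1 (38.1%) lie at the low end and TERT (65.7%) and ACD (62.1%) at the high end, and among the EGFP libraries POT1 was highest and TERT and ACD lowest in replicate 1. Since the trend moves with the groups, a technical trend and a response to OmoMYC cannot be told apart. Without EGFP replicate 1 the log2 fold changes were -0.64 for POT1, -0.33 for TERF1 and -0.41 for TERT, and all 3 stayed called by edgeR.

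Removing a trend on GC content, transcript length and gene span from each library changed which members were called. TERT went to a log2 fold change of -0.72 (edgeR adjusted p = 8.86e-08) and ACD to -0.31 (adjusted p = 2.24e-05). POT1 shrank to -0.38 (adjusted p = 1.14e-06), and TERF1 went to 0.01 (adjusted p = 0.894). TERF2 was called at 0.16 (adjusted p = 0.00776), TINF2 stayed called at 0.19 and TERF2IP at 0.34. In this fit 59.8% of all genes were called in either direction, so TERT, POT1 and ACD were suppressed and TERF2IP, TINF2 and TERF2 induced against a high background. TERT, POT1, TERF2IP and TINF2 kept their direction and call in both fits.

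**Figure D3:**
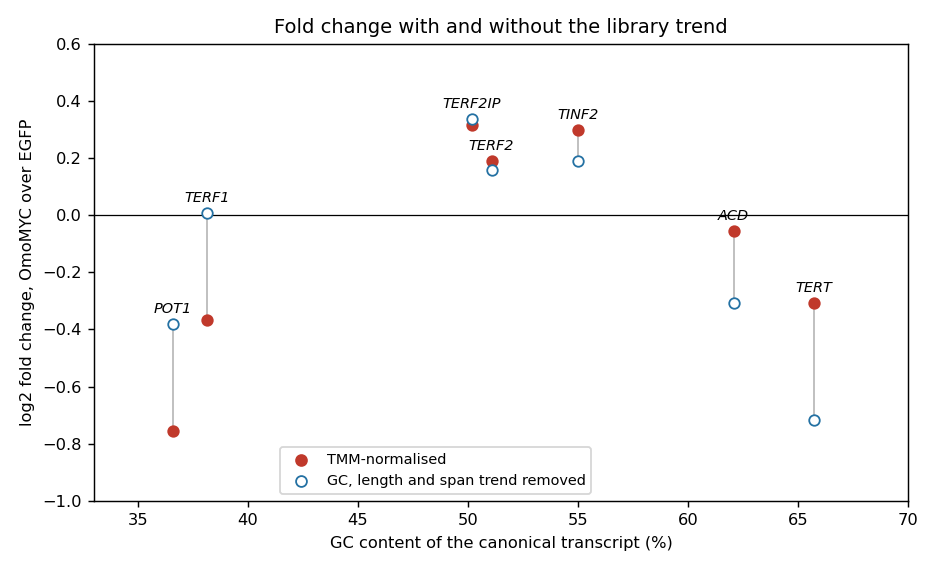
The log2 fold change of the 7 measured members, OmoMYC over EGFP (vertical axis), against the GC content of the canonical transcript in percent (horizontal axis), with TMM scaling (filled) and after removal of the trend on GC content, length and span (open). The lines show that POT1 and TERF1 move up, TERT and ACD move down, and TERF2IP, near 50% GC, moves from 0.32 to 0.34.

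ATRX and DAXX could not be compared between OmoMYC and EGFP. In the table of engineered cells each is listed under 2 identifiers. ATRX had 0 or 1 count in every library under ENSG00000085224.16 and 89 to 153 counts under ENSG00000268946.2, and DAXX had 0 to 2 counts under ENSG00000204209.6 and 1 to 12 counts under ENSG00000206279.6. In parental cells of the same line, ATRX had between 7185 and 10429 counts and DAXX between 4470 and 6007. The low counts are shared with other genes listed this way. Among genes averaging 500 counts or more in the parental table, the 156 whose symbol has more than 1 identifier in the table of engineered cells had a median log2 ratio of mean counts between the tables of -7.86, and 87.8% fell below -3. For the 9123 genes with a single identifier the median was -0.57 and 1.09% fell below -3. Why the counts are low was not tested, and they are no measure of ATRX or DAXX expression. The second ATRX identifier gave a log2 fold change of -0.40 (edgeR adjusted p = 0.0726), which passed the threshold without EGFP replicate 3 (0.0238) or OmoMYC replicate 3 (0.0421).

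**Figure D4:**
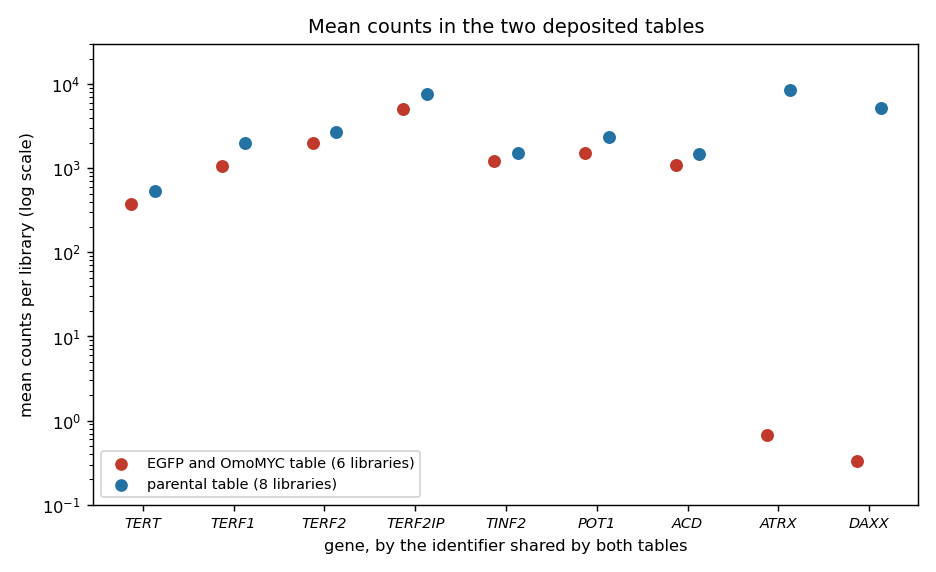
Mean counts per library (vertical axis, log scale) of each gene under the identifier shared by both tables, in the 6 libraries of the engineered lines and the 8 parental libraries. TERT and the 6 shelterin genes lie close together in the 2 tables, while ATRX is at 0.667 against 8626 counts and DAXX at 0.333 against 5259.

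No member passed the test between dTAG47 and DMSO in parental cells. By edgeR, 0 of 9 passed an FDR of 0.05, against 0.159% of all 14470 genes. An unadjusted p below 0.05 was seen for 0 of 9, against 7.28% of all genes, so these counts say little by themselves. DESeq2 and limma-voom also called 0. With the replicate number as a block, or with replicates 1 and 2 set apart from 3 and 4, edgeR called 1 (ATRX). Over all 14470 genes the block called 306 induced and 362 suppressed, and the split 374 and 420. The groups overlapped for all 9 genes, where 3.34% of all genes did not overlap. TERT was at 10.6, 9.64, 11.4 and 11 CPM with DMSO and at 10.3, 10.7, 13 and 11.6 CPM with dTAG47. The difference was 0.10 on the log2 scale (SE 0.08, 95% CI -0.07 to 0.27). The 95% confidence intervals of all 9 genes lay between -0.27 and 0.28, so larger changes than these lie outside them. TERF2IP had the smallest difference, with means of 160 ± 3.9 CPM (DMSO) and 160 ± 4.14 CPM (dTAG47, SD, n = 4 each).

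ATRX, the helicase of the pair, came nearest to a call. It was at 208, 195, 176 and 173 CPM with DMSO and at 169, 194, 165 and 158 CPM with dTAG47. The groups overlapped, and the log2 fold change was -0.13 (SE 0.066, edgeR adjusted p = 0.673). By a chi-square of counts per degree of freedom, DMSO replicates 1 and 2 (2.68) and 3 and 4 (3.23) were closer to each other than across these pairs (9.06 to 11.7), whereas dTAG47 replicate 1 was nearer to 3 (5.89) than to 2 (8.49). The labels do not say whether the numbers mark a batch. With this split as a factor, ATRX passed (log2 fold change -0.13, adjusted p = 0.0288) where 5.49% of all genes were called. Within replicates 1 and 2 alone the log2 fold change was -0.14 (adjusted p = 0.693), and within replicates 3 and 4 alone it was -0.12 (adjusted p = 0.0203). The fit within replicates 3 and 4 called 426 genes induced and 470 suppressed of 14528. Without dTAG47 replicate 2, the library with epithelial transcripts, ATRX was at -0.20 (adjusted p = 0.0802) and 0 members were called. After removal of the GC, length and span trend it was -0.04 (adjusted p = 0.537). DAXX, the H3.3 chaperone, was at 105, 102, 109 and 115 CPM with DMSO and at 114, 104, 111 and 116 CPM with dTAG47, with a log2 fold change of 0.05 (SE 0.05). The ratio of ATRX to DAXX per kb was 0.402 ± 0.0538 with DMSO and 0.355 ± 0.0505 with dTAG47 (n = 4 each, two-sided exact permutation p = 0.171).

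The wider telomere pathway was covered by 61 genes in 4 lists. With OmoMYC, 27 of the 56 tested were suppressed and 5 induced, with a median log2 fold change of -0.18 where the median over all genes was 0.01. Over all genes 25.7% were suppressed and 27.3% induced. After removal of the GC, length and span trend 33 were suppressed and 8 induced, where 3677 of all 13499 genes were suppressed and 4391 induced. The number induced ranged from 3 without OmoMYC replicate 2 to 8 without EGFP replicate 3. Over all genes, 2986 of 13925 and 4065 of 14009 were induced in these 2 fits. Among telomerase RNA, assembly and trafficking genes, 7 of 10 were suppressed and 0 induced, against 25.7% and 27.3% of all genes. GAR1, a core protein of the telomerase RNA particle, went from 17.4 ± 2.46 to 11.7 ± 0.8 CPM (log2 fold change -0.57, edgeR adjusted p = 0.0022). NAF1, an assembly factor exchanged for GAR1, had a log2 fold change of -0.57, ZCCHC8, which acts in the processing of the telomerase RNA, -0.49, and SHQ1, a chaperone of dyskerin, -0.40. After trend removal 8 of 10 were suppressed, against 3677 of all 13499 genes. The values were smaller, at -0.33 for GAR1, -0.34 for NAF1, -0.28 for ZCCHC8 and -0.18 for SHQ1, all still called. The genes called were not all the same. NOP10 lost its call after trend removal (-0.04, edgeR adjusted p = 0.676). RUVBL2 (-0.22, edgeR adjusted p = 0.000969) and WRAP53 (-0.22, 0.00207), not called with TMM scaling, were then called. Dyskerin itself (DKC1) was not analysed here in this comparison, nor the telomerase RNA (TERC) in either.

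In the list of CST, end replication and maintenance factors, 5 of 14 were suppressed and 2 induced, against 25.7% and 27.3% of all genes. Both primase subunits fell: PRIM1 from 58.6 ± 7.2 to 32.8 ± 2.48 CPM (log2 fold change -0.84, edgeR adjusted p = 8.97e-05) and PRIM2 from 45.6 ± 6.14 to 26 ± 2.85 CPM (-0.81, adjusted p = 0.000231). PINX1, which binds TERT and TERF1, fell by 0.54 on the log2 scale, and SMG6, a nuclease of RNA decay that also associates with telomerase, rose by 0.61. After trend removal, PRIM1 was at -0.39, PRIM2 at -0.57, PINX1 at -0.51 and SMG6 at 0.25, all still called. TEN1, a CST subunit, was also called but had means of only 0.115 CPM (EGFP) and 0.43 CPM (OmoMYC). Of the H3.3, PML and heterochromatin genes, 6 of 16 were suppressed and 2 induced, against 25.7% and 27.3% of all genes. The H3 chaperone ASF1A had a log2 fold change of -0.64, the heterochromatin protein CBX3 -0.54 and the H3.3 gene H3F3A -0.37, while PML, the scaffold of the bodies that form at ALT telomeres, had 0.33. Of these, ASF1A alone stayed called after trend removal (-0.15, edgeR adjusted p = 0.00891). CBX3 went to -0.02 (edgeR adjusted p = 0.653), H3F3A to 0.01 (0.873) and PML to 0.01 (0.875). The list then had 6 suppressed and 4 induced genes with a median of -0.06. Over all 13499 genes, 3677 were suppressed and 4391 induced in that fit. HIRA and SUV39H1 were tested at about 2 CPM and also had few counts against the parental table (log2 ratios of -3.72 and -3.70), HIRA under a single identifier. Of the recombination genes linked to ALT, 9 of 16 were suppressed and 1 was induced, against 25.7% and 27.3% of all genes. RMI2 (-0.86), BLM (-0.74) and RMI1 (-0.67), all parts of the complex that dissolves recombination intermediates, fell on the log2 scale, and ZNF827, which recruits chromatin remodellers to ALT telomeres, rose by 0.50 (adjusted p = 0.000232). After trend removal RMI2 was at -0.79, BLM at -0.51, RMI1 at -0.22 and ZNF827 at 0.42, all still called. TOP3A, a further part of the complex of RMI2, BLM and RMI1, was not called with TMM scaling (-0.10, edgeR adjusted p = 0.266). It was called after trend removal (-0.24, edgeR adjusted p = 2.4e-05). With dTAG47, edgeR called 0 of 57 tested genes of these lists, against 0.159% of all genes. DESeq2 called 1, NR2C2, where 44 of all 17865 genes were induced and 15 suppressed. With replicates 1 and 2 set apart from 3 and 4, edgeR called 6, against 5.49% of all genes.

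**Figure D5:**
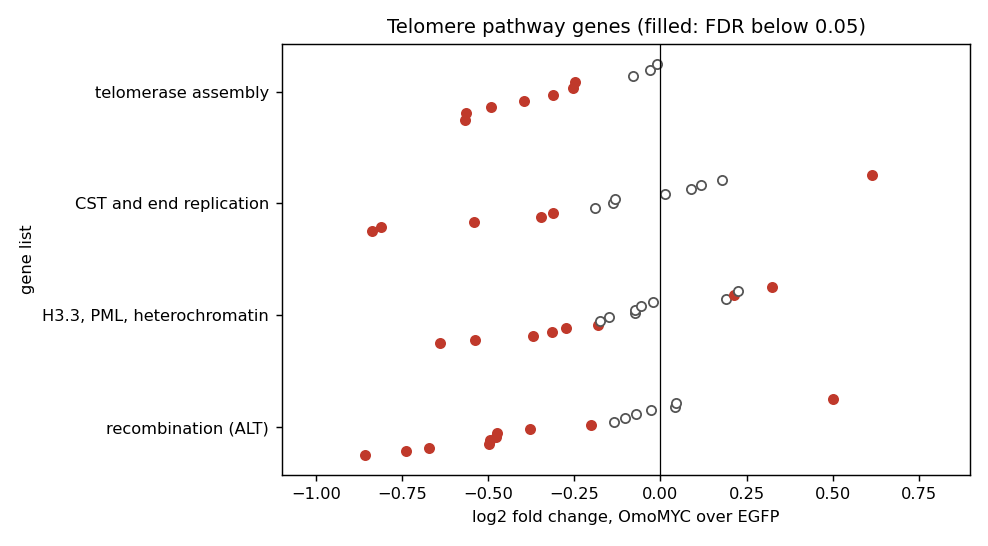
The log2 fold change, OmoMYC over EGFP (horizontal axis), of the 55 tested pathway genes averaging 1 CPM or more, by list (vertical axis, genes spread by rank within a list), filled where the adjusted p was below 0.05. All 10 genes of the telomerase assembly list lie below 0, and PRIM1, PRIM2 and RMI2 lie lowest.

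Some members share ground with a gene on the opposite strand, and the sources used here do not say whether counting used strand. TERF2 shares 10170 bases with CYB5B, TERF2IP 871 bases with KARS and TINF2 957 bases with GMPR2. None of these bases lie in exons of the canonical transcripts of both genes, and exons of other transcripts were not compared. ACD shares 58 exonic bases with RLTPR by the same measure. With OmoMYC the log2 fold changes of these partners were -0.40 for CYB5B, -0.20 for KARS, 0.18 for GMPR2 and 0.53 for RLTPR.

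The genes whose log2 CPM followed that of TERT most closely over the 14 libraries were CDCA4 (Pearson r = 0.91), DTYMK (0.901), FOXRED1 (0.9), TOP3B (0.894) and IFI27L1 (0.892), chosen as the highest of 13424 genes. The libraries fall into 4 groups of 2 tables scaled apart, so these values are a description.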

How the data were processed

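Gene counts came from ribosomal RNA-depleted total RNA of CHP-134 cells. The deposited tables hold raw counts per gene, made by the authors with STAR and featureCounts on hg19 (DESeq2 is also named in the submitters' processing notes). Versions and the strand setting are not given in the sources used here. The tables differ in the genes they list and were fitted apart. Groups came from the sample titles.

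Genes passing edgeR's filterByExpr were tested with the edgeR (4.0.16) quasi-likelihood test, TMM scaling and Benjamini-Hochberg adjustment over all tested genes, in R 4.3.3. Alternatives were DESeq2 (1.42.0), limma-voom (limma 3.58.1), other scalings and filters, a test against a 1.5-fold change, a replicate block, leaving out each library, and offsets that remove a spline trend on GC content, length and span. The fitted trend was centred in each library, a step added after seeing the data, as were the fits within replicates 1 and 2 and within 3 and 4. log2 CPM used a prior count of 2. Features came from GENCODE on GRCh37. The default edgeR, limma-voom and DESeq2 fits were tested on counts simulated without a GC trend. The other alternatives, among them the trend-removed fit, were not tested this way.

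The members and lists were chosen with earlier results of these data known. All 9 members were named in both comparisons. From each pathway list, every gene called with dTAG47 and the 4 genes with the largest called change with OmoMYC at a mean of at least 1 CPM were named, with genes overlapping a member, the neighbours of TERT, the 5 genes most like TERT, MYCN and MYC. TEN1, HIRA, SUV39H1, NR2C2, TOP3A, NOP10, RUVBL2 and WRAP53 were named after their values were seen. Counting error sets the precision of low genes: TERT had 300 to 653 counts per library.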

Additional observations from a re-analysis of the deposited data

How the results depend on the processing

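With OmoMYC, POT1 and TERF2IP kept their direction and call under all 15 alternatives other than the test against a 1.5-fold change. Against a 1.5-fold threshold 0 members were suppressed and 0 induced, and of the pathway genes 2 were suppressed and 0 induced. Over all 13803 genes this test called 239 suppressed and 945 induced, so the counts of 0 say little by themselves. Removal of the GC, length and span trend gave 8 induced pathway genes, where 4391 of all 13499 genes were induced, and took TERF1 to 0.00953. Leaving out 1 library at a time gave 1 to 3 induced members, 2 to 4 suppressed members, 24 to 29 suppressed and 3 to 8 induced pathway genes. Over all genes these fits called 2842 to 4184 suppressed and 2698 to 4065 induced, of 13920 to 14022 tested. The suppressed members include the second ATRX identifier without EGFP replicate 3 and without OmoMYC replicate 3, which gave the 4. Its counts are no measure of ATRX expression.

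With dTAG47, 1 member (ATRX) was called under the replicate block, with replicates 1 and 2 set apart from 3 and 4, and within replicates 3 and 4 alone. Pathway genes called numbered 1 by DESeq2 and 5 under the replicate block. They numbered 1 after trend removal, 6 with the replicate factor and 3 within replicates 3 and 4. Over all genes, induced and suppressed calls were 44 and 15 of 17865 by DESeq2 and 306 and 362 of 14470 under the block. They were 104 and 56 of 14201 after trend removal and 374 and 420 of 14470 with the factor. Within replicates 3 and 4 they were 426 and 470 of 14528. The ATRX calls came from fits among these. In the main fits the replicate numbers were not taken to pair the libraries. Deviations of same-numbered libraries correlated between -0.0697 and 0.293 with OmoMYC and between 0.0093 and 0.159 with dTAG47. Libraries with different numbers were not correlated for reference. The replicate block lowered the biological coefficient of variation (replicate spread beyond counting error) from 0.0838 to 0.0693 with OmoMYC and from 0.0564 to 0.0329 with dTAG47. These correlations therefore do not show that the numbers carry no structure. The replicate block called TERF2 (0.191, adjusted p = 0.0394, edgeR) with OmoMYC.

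Values near 0 changed sign with dTAG47. TINF2 was at -0.0363 after trend removal and -0.0222 within replicates 1 and 2, POT1 at 0.0385 and 0.0406. TERF2IP was at -0.00162 by DESeq2, -0.000129 by limma-voom, -0.00194 with RLE factors, -0.0101 with library size only, -0.00143 with no filter, -0.000169 with at least 10 counts per library, -0.0147 after trend removal and -0.0199 within replicates 1 and 2. Leaving out 1 library gave -0.00734 to 0.0457 for TINF2, -0.119 to 0.000694 for POT1, -0.000895 to 0.0477 for TERF2 and -0.0151 to 0.0154 for TERF2IP. The cause was not tested.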
